A study of Mus musculus with 18 samples.

Results

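Transcript levels of autosomal genes were compared between ileal epithelium of mice at day 7 of lactation and ileal epithelium of virgin males, with 6 RNA-seq libraries in each group. The genes are those placed on chromosomes 1 to 19 of the mouse genome (GRCm38), which are 43008 of the 47729 gene identifiers in the count tables. Of these, 25837 had a read in at least 1 of the 12 libraries, and 14955 passed the filter on low counts and were tested. Epithelial cells were isolated from the ileum by fluorescence-activated sorting, and libraries were made from polyadenylated RNA. The virgin males, and 6 virgin females whose libraries entered the fit as a group of their own, were matched to the lactating mice in age. No strain, genotype, age in weeks, litter size or sorting gate is given in the sources used here. The labels name the RM3 diet for breeding and the RM1 diet for maintenance and experiment, without saying which group ate which. Lactating mice and virgin males differ in sex, in mating, pregnancy and birth, and in lactation, and these cannot be told apart in this comparison. Nothing in the labels says that the libraries came from separate animals, so the p-values measure the spread between these libraries.

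The epithelium of the small intestine is renewed from crypts, where stem cells and dividing progenitors lie, and its cells mature into absorptive enterocytes as they move up the villus to its tip. Absorptive transporters, brush border enzymes and fat-handling proteins are made mainly on the villus, so a library with a larger share of crypt cells has less of their transcripts. The ileum is the last stretch of the small intestine and reclaims bile acids, and lactation is known in rodents for a high intake of food and minerals and an enlarged gut.

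The 12 libraries held 34577104 to 47748407 counts, of which 89.5% to 93.0% fell on autosomal genes. Epithelial markers were abundant in each of them: Epcam was at 1817 to 2579 CPM (counts scaled to the library total) in lactating and at 1682 to 2160 in male libraries, and Cdh1, Vil1, Krt20 and Krt8 were at 677 or more. Virgin male 6 stood apart in 1 transcript, the predicted gene Gm42418, at 33520 CPM against at most 2451 in the other males. In the fit of all 18 libraries, virgin female 2 was also high in Gm42418.

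The crypt share of each library was estimated by a crypt score, the mean log2 CPM of 35 cell cycle and 14 crypt stem cell genes. The score was 4.28 ± 0.580 (SD, n = 6) in lactating libraries, with a range of 3.42 to 5.04, and 4.71 ± 0.178 (SD, n = 6) in male libraries, with a range of 4.46 to 4.95. Lactating libraries therefore spread more widely, with lactating female 1 lowest and lactating female 2 highest, and the 6 male libraries lay close together within that spread. The difference of −0.43 did not pass a two-sided exact permutation test (p = 0.119, 6 libraries against 6). Without lactating female 2, the difference was −0.58 with an exact permutation p of 0.0108. A villus tip score, made in the same way from 15 genes, ran from 6.75 to 8.68 in lactating and from 6.27 to 7.78 in male libraries. In these bulk samples, fewer cells of a type and less RNA per cell cannot be told apart.

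**Figure D1:**
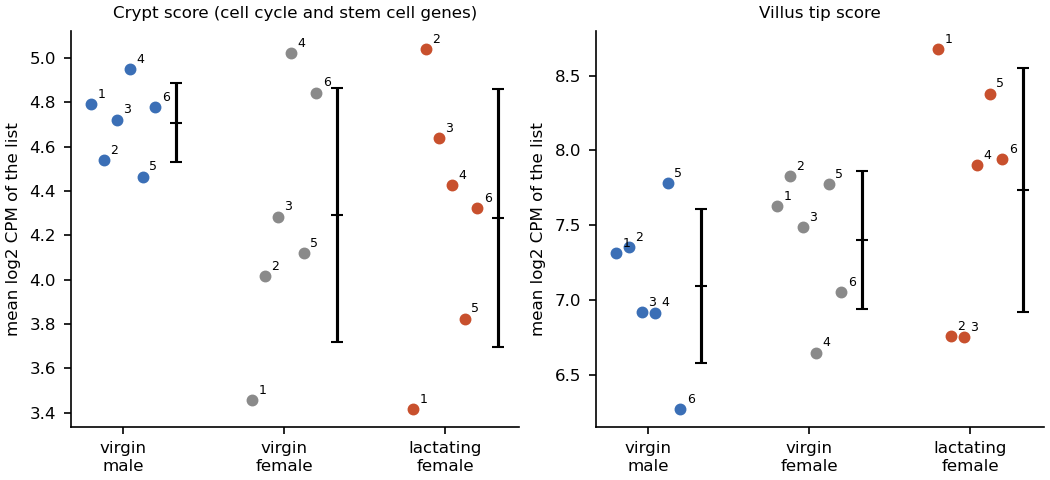
Crypt score (left) and villus tip score (right) of each library as mean log2 CPM of the listed genes, with points numbered by library and the black bar giving the mean ± SD of the 6 libraries. The lactating crypt scores spread from 3.42 to 5.04 around the males, which lie between 4.46 and 4.95.

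Every gene was tested in a fit with a mean for each group and again in a fit that also held the crypt score as a covariate, so that changes could be read beside the crypt share. Genes with an adjusted p under 0.05 (edgeR's quasi-likelihood test, Benjamini-Hochberg adjustment over all genes tested) are called changed. Without the score, 101 of 14955 autosomal genes (0.675%) were called, 88 of them (0.588%) higher and 13 (0.0869%) lower in lactating libraries. With the score the number was 82 (0.548%), with 67 rises (0.448%) and 15 falls (0.1%). Both fits called 67 genes, 59 of them higher and 8 lower in lactating libraries. At an unadjusted p under 0.05, 2364 of the 14955 genes differed without the score and 1360 with it, both directions together. Counts of a gene list at an unadjusted p are to be read beside these. Of the 88 rises, 59 were at least 2-fold, whereas Bcl6 alone among the 13 falls reached that size. Protein-coding genes made up 80 of the 88 rises and each of the 13 falls. Over all autosomal genes tested the median log2 fold change was −0.01, with 48.9% above 0, a centre that the scaling sets. Under library totals without that scaling it was −0.19, or −0.05 with the score.

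The number of calls depended on single libraries. Without the score, 280 genes were called when lactating female 2 was left out, and 97 of the 101 were among them. Leaving out lactating female 3 gave 152 calls. Leaving out lactating females 1, 5 or 6 gave 57, 63 or 54, and leaving out virgin males 1, 2, 3, 4 or 6 gave 51, 52, 60, 50 or 47. With virgin female 2 and virgin male 6 both left out, 48 genes were called without the score and 74 with it. Of the genes named below, 19 of the 45 called without the score were then lost (adjusted p 0.0668 to 0.147): Acadl, Aldh4a1, Bco1, Fut2, Gcg, Gcnt1, Mreg, Plod3, Pter, Rfk, Slc19a3, Slc52a2, Slc52a3, Slc6a9, Socs2, Socs3, Suox, Tat and Tcf3. Of the 42 called with it, Dpf3, Dtx4, Hist1h1c, Slc6a9 and Tac1 were lost (0.0508 to 0.0566). With the score, leaving out lactating female 2 or virgin male 2 gave 54 calls each. Under all 46 alternative settings of both fits together, 22 genes stayed called, 18 of them with gene names: Atp2b1, Bcl6, C3, Ccdc151, Dusp6, Fbxl6, Flvcr2, Foxo6, Plcd1, Plod2, Slc30a1, Slc30a10, Slc31a1, Slc39a4, Slc40a1, Slc5a4a, Sulf2 and Tinagl1.

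Adjustment for the crypt score made most rises smaller. The median log2 fold change of the 88 risen genes was 1.32 without and 1.08 with the score, and 78 of the 88 had a smaller estimate with it. The ratio of the estimates, with to without, had a median of 0.811 and ran from 0.624 to 1.22. Expression of 78 of the 88 fell with a rising crypt score, and 56 had a slope on the score that passed the same threshold. Over all autosomal genes tested, 45.9% had a called slope and 50.1% a slope below 0. The SD of their log2 fold changes was 0.42 without and 0.34 with the score, so estimates were smaller across all genes. The 88 were also chosen in the fit without the score, so their smaller estimates are no finding about risen genes. The 13 fallen genes had a median of −0.63 without and −0.54 with the score, and 11 had a slope above 0.

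**Figure D2:**
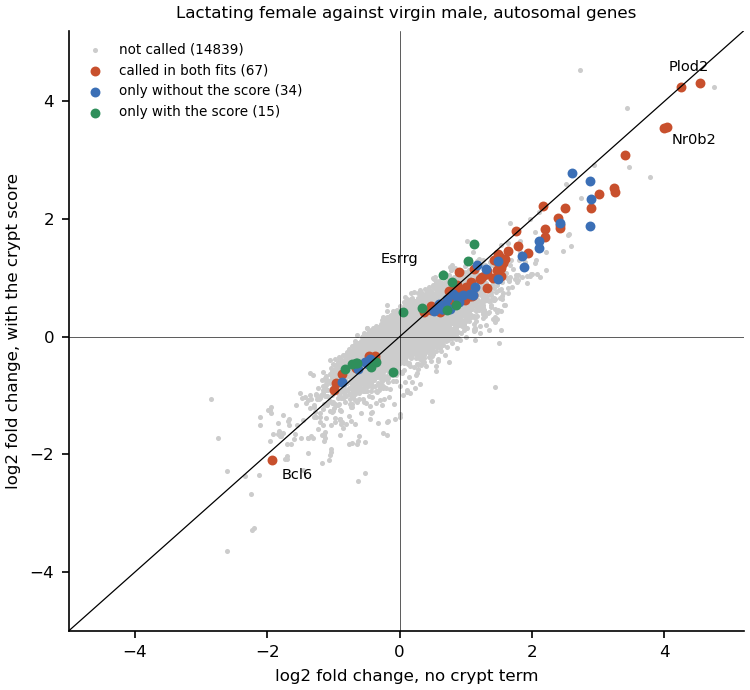
Log2 fold change of each autosomal gene, lactating female against virgin male, without (x axis) and with (y axis) the crypt score; the diagonal marks equal values and colours mark the fits in which a gene was called. Most of the 88 risen genes lie below the diagonal, while Plod2 and Bcl6 lie on or near it.

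Several transporters of metals were among the risen genes. Of 15 tested autosomal genes of zinc, copper and manganese handling, 4 rose in both fits, and DESeq2 and voom also called 4 rises. Over all autosomal genes, 0.588% rose without and 0.448% with the score. The gene lists here and below were chosen with earlier results of these data known, so their counts of calls are no independent test. None fell in edgeR's fits, although 2 were lower at an unadjusted p under 0.05 without the score and 3 with it. The median of the list was 0.11 without and 0.01 with the score, beside −0.01 and 0.00 over all genes, so the 4 risen genes stood apart from the rest of their list. Values below are CPM after scaling by the trimmed mean of M-values (TMM), given as lowest, median and highest of 6 libraries.

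Slc31a1 (ENSMUSG00000066150, chr4:62360727-62391769, plus strand), the high-affinity copper importer, was at 345, 493 and 936 CPM in lactating and 147, 186 and 226 in male libraries. Each lactating library exceeded each male library. It rose by 1.57 on the log2 scale (SE 0.21, adjusted p = 5.28e-04) without and by 1.25 (SE 0.14, adjusted p = 7.63e-05) with the score. Slc39a4 (ENSMUSG00000063354, chr15:76612383-76617384, minus strand), the zinc importer of the brush border, was at 400, 730 and 1089 CPM against 205, 264 and 302. Its groups did not overlap either, and the estimate was 1.53 (SE 0.25, adjusted p = 0.00303), or 1.17 (SE 0.15, adjusted p = 4.41e-04) with the score. Slc30a1 (chr1:191906767-191913247), which exports zinc from the cell, was at 93.7, 122 and 169 CPM against 53.0, 60.1 and 73.8, again without overlap. It rose by 1.08 on the log2 scale (SE 0.17, adjusted p = 0.00244) without the score and by 0.93 (SE 0.15, adjusted p = 0.00417) with it. Slc30a1 and Slc39a4 lie outside the naming rule and were chosen after their values were seen.

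Slc30a10 (ENSMUSG00000026614, chr1:185454848-185468762, plus strand), a manganese exporter, showed the largest change of the metal genes. Lactating libraries were at 34.8, 68.3 and 175 CPM and male libraries at 8.64, 13.1 and 22.2, with no overlap. The log2 fold change was 2.5 (SE 0.38, adjusted p = 0.00199) without and 2.19 (SE 0.34, adjusted p = 0.00283) with the score. The predicted gene Gm2061 overlaps its start on the opposite strand and rose as well, by 3.01 on the log2 scale. The strand setting of the counting is not given in the sources used here, so the counts of these overlapping genes are uncertain. The metallothionein genes Mt1 and Mt2, textbook targets of the metal sensor MTF1, were not called. Mt1 was at 14.5, 25.9 and 35.5 CPM in lactating and 17.6, 41.8 and 75.4 in male libraries (log2 fold change −0.67, adjusted p = 0.285). Mt2 was at 1.45, 5.50 and 12 against 1.51, 13.6 and 35.5 (−1.21, adjusted p = 0.324). The ranges of both overlapped widely, with the lactating libraries toward the low end.

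MTF1 binds metal response elements, whose core was searched for as TGCACNC or TGCGCNC on both strands in the 250 bases before each start site (RefSeq, GRCm38.p6). It was present in 33.6% of the 10137 autosomal genes tested with a promoter in the table, in 32.8% of 67 risen genes and in 27.3% of 11 fallen genes, which are like shares. The Slc30a10 promoter is shown because this gene had the largest change of the metal genes and 3 matches. It spans chr1:185454598-185454847 on the plus strand, and capitals mark the matches, the first 2 of which overlap on opposite strands.
Slc30a10: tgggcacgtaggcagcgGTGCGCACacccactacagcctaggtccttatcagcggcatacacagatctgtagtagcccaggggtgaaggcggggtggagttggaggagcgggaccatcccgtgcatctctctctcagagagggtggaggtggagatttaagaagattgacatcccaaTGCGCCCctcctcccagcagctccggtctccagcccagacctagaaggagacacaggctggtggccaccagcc
The promoter of Slc31a1 held no match and that of Slc30a1 held 1, while that of the uncalled Mt2 held 3.

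Iron and calcium exporters of the basolateral membrane rose too. Of 11 genes tested in iron handling, edgeR called 1 in each fit, while DESeq2 called 1 without and 2 with the score. The gene called by edgeR was Slc40a1, ferroportin, through which iron leaves the enterocyte. It was at 28.8, 53.0 and 77.3 CPM in lactating and 8.44, 15.2 and 21.7 in male libraries, without overlap. Its log2 fold change of 1.76 (SE 0.25, adjusted p = 8.63e-04) was as large with the score, at 1.80 (SE 0.26, adjusted p = 0.00144). Of 10 genes tested in calcium and phosphate absorption, edgeR called 1 in each fit, while DESeq2 and voom called 2 in each. The gene called by edgeR was Atp2b1, a calcium pump of the plasma membrane. It was at 240, 313 and 432 CPM against 139, 153 and 186, again without overlap (log2 fold change 1.0, adjusted p = 0.00164; 0.84 with the score, adjusted p = 0.00143). Flvcr2, a solute carrier of the major facilitator family, was at 14.3, 27.3 and 74.8 CPM against 3.23, 6.39 and 8.28. Lactating female 1 was far above the others, yet the lowest lactating library exceeded the highest male (log2 fold change 2.42, adjusted p = 0.00345; 1.85 with the score, adjusted p = 0.00345).

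**Figure D3:**
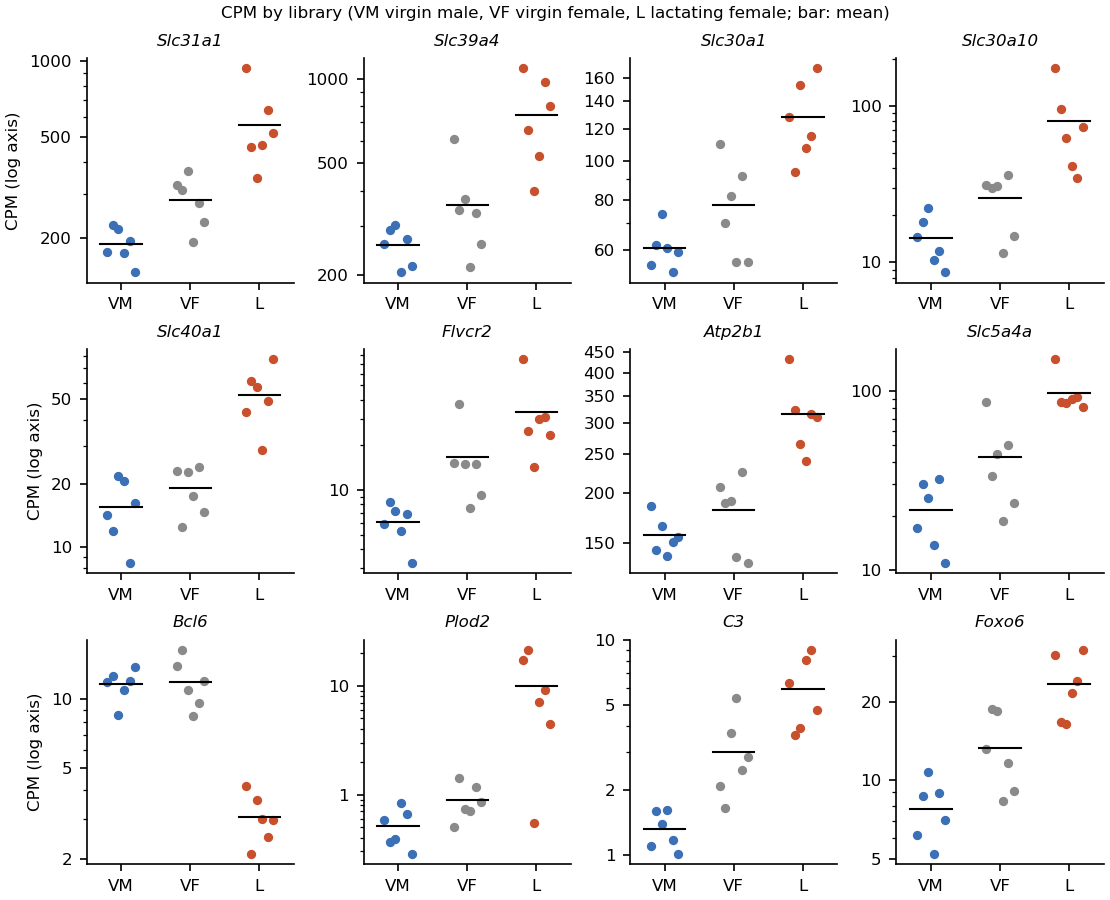
TMM-scaled CPM of 12 genes called under every alternative of both fits, on a log axis, with 1 point a library and a bar at the group mean (VM virgin male, VF virgin female, L lactating female). The lactating libraries lie beyond all males in each panel except Plod2, where 1 lactating library, at 0.55 CPM, lies among the males.

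Genes of vitamin uptake and activation were the next set. Of 23 tested, 5 rose without the score and 3 with it, and the median of the list moved from 0.63 to 0.16. DESeq2 called 5 and 6 rises in the corresponding fits. The 3 that stayed belong to the riboflavin route: the transporters Slc52a2 and Slc52a3, and riboflavin kinase, Rfk, which makes flavin mononucleotide. Slc52a2 was at 118, 163 and 253 CPM in lactating and 69.3, 83.7 and 98.3 in male libraries. The estimate was 1.06 (SE 0.22, adjusted p = 0.0229) without and 0.69 (SE 0.09, adjusted p = 7.57e-04) with the score, so that the estimate fell but its error fell further. Slc52a3 was at 158, 221 and 367 CPM against 83.8, 103 and 138 (log2 fold change 1.09, adjusted p = 0.0434; 0.70 with the score, adjusted p = 0.0122). Rfk was at 659, 892 and 1582 CPM against 343, 516 and 602 (0.99, adjusted p = 0.0479; 0.63 with the score, adjusted p = 0.0225). None of the 3 overlapped between the groups, and Slc52a3 and Rfk were chosen after their values were seen.

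Without the score, the riboflavin calls were lost on leaving out any 1 of several libraries. Where they were lost, the estimates were 0.93 to 1.05 for Slc52a2, 0.92 to 1.17 for Slc52a3 and 0.80 to 1.05 for Rfk. The call of Slc52a2 was lost without any of lactating females 1, 5 and 6 or virgin males 1, 4 and 6 (adjusted p 0.0506 to 0.0736). That of Slc52a3 was lost without lactating female 1, 5 or 6 or any male (0.0588 to 0.120), and that of Rfk without lactating female 1, 4, 5 or 6 or any male (0.0547 to 0.136). With the score, Slc52a2 stayed called in each of 25 alternatives. The call of Slc52a3 with the score was lost without lactating female 2 (adjusted p = 0.0691), and that of Rfk without lactating female 2 or 6 or without virgin male 4 or 5 (0.0539 to 0.0948). With the crypt stem cell list alone, crypt minus villus tip score or the first principal component in place of the score, Slc52a3 (0.0791 to 0.142) and Rfk were both lost. Rfk was also lost without TMM and with the 12 libraries alone (0.0672 to 0.119 over the 5 settings).

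The other 2 rises of the vitamin list were not called with the score, and both were led by lactating female 1. Slc19a3, a thiamine transporter, was at 0.556, 0.674 and 5.42 CPM in lactating and 0.0517, 0.233 and 0.283 in male libraries. Lactating female 1 alone was above 1 CPM, although the groups did not overlap. Its log2 fold change of 2.87 (adjusted p = 0.0345) was 1.78 without that library and no longer called, nor was it called without any 1 of the males (adjusted p 0.0563 to 0.0983 over these 7). With the score it was 1.89 (adjusted p = 0.127). Bco1, which splits beta-carotene into retinal, was at 5.25, 30.8 and 115 CPM against 4.64, 7.68 and 10.3, and lactating females 3 and 6 lay within the male range. The estimate was 2.42 (adjusted p = 0.0431) without and 1.93 (adjusted p = 0.189) with the score. The call was lost without lactating female 1, 4 or 5 or any male (adjusted p 0.0662 to 0.120).

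Among 15 tested genes of growth hormone, prolactin and STAT5 signalling, 3 rose and 1 fell without the score, and 2 rose and 1 fell with it. Bcl6 (ENSMUSG00000022508, chr16:23965052-23988852, minus strand), a transcriptional repressor, had the smallest p-value of all autosomal genes in the fit without the score. It was at 2.10, 2.98 and 4.16 CPM in lactating and 8.58, 12 and 13.9 in male libraries, so the groups were far apart. The log2 fold change was −1.93 (SE 0.18, adjusted p = 4.97e-06) without and −2.09 (SE 0.17, adjusted p = 8.45e-07) with the score. Virgin females were at 8.49, 11.5 and 16.4 CPM, around the males, with 2 of the 6 above the highest male and each of them above the highest lactating library. Cish, a feedback inhibitor of cytokine receptors, was at 16.5, 22.5 and 34.8 CPM against 7.02, 8.73 and 9.88, without overlap (log2 fold change 1.48, SE 0.21, adjusted p = 9.78e-04; 1.41 with the score, adjusted p = 0.00311).

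The other suppressors of cytokine signalling moved less regularly. Socs2 was at 72.9, 84.4 and 109 CPM in lactating and 57.2, 64.8 and 67.6 in male libraries (log2 fold change 0.47, adjusted p = 0.0431; 0.53 with the score, adjusted p = 0.0230). Socs3 was at 17.7, 40.9 and 78.1 CPM against 15.6, 18.5 and 26.0 (1.30, adjusted p = 0.0353; 1.15 with the score, adjusted p = 0.0938). The Socs2 groups did not overlap, whereas lactating female 2 lay within the male range for Socs3. Without the score, the Socs2 call was lost without lactating female 1, 5 or 6 or any male (adjusted p 0.0745 to 0.124), and the Socs3 call without lactating female 1, 3 or 6 or without virgin male 1, 2, 3, 4 or 6 (0.0541 to 0.101). With the score, the Socs2 call was lost without lactating female 2 or without virgin male 1 or 5 (0.0550 to 0.121). Pim3, a kinase gene, was at 41.6, 50.9 and 63.3 CPM against 24.0, 33.7 and 36.1, without overlap (0.72, adjusted p = 0.00706; 0.58 with the score, adjusted p = 0.0151). Socs2 and Pim3 were chosen after their values were seen.

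STAT proteins bind sites of the form TTCNNNGAA, a pattern that reads the same on both strands. It was found in the 250 bases before the start in 7.29% of the 10137 tested autosomal genes with a promoter, in 7.46% of 67 risen genes and in 9.09% of 11 fallen ones. The share among called genes was thus near that of all genes. The promoters of Bcl6, which fell, and Socs3, which rose, are shown because both hold the pattern, in capitals. The windows of Cish and Pim3 held no match. The RefSeq start used for Cish lies 633 bases and that for Socs3 681 bases inside the gene as annotated in GENCODE, so the bases before the outer start were not searched. The Bcl6 windows before its 2 start sites are chr16:23988853-23989102 and chr16:23981284-23981533, and the Socs3 window is chr11:117969367-117969616, each given 5′ to 3′ on the minus strand (RefSeq, GRCm38.p6).
Bcl6, upstream start: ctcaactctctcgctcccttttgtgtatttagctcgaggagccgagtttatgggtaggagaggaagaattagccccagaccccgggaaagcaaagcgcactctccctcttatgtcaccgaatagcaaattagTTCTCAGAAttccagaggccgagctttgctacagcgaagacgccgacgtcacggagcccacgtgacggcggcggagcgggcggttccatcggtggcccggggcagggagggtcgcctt
Bcl6, downstream start: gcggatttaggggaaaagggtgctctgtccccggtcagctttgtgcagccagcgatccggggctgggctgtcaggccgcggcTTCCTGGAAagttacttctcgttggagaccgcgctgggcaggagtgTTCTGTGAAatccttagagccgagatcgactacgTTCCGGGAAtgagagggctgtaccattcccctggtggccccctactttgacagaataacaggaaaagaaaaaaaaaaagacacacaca
Socs3: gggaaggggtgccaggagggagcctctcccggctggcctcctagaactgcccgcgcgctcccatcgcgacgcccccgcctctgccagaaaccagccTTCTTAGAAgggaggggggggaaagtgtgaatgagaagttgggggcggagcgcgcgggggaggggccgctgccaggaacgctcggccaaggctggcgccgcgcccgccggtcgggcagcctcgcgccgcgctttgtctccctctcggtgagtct
The upstream Bcl6 window held 1 match and the downstream window held 3, starting 168, 122 and 88 bases before the start site.

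Genes of bile acid, sugar and fat handling gave single calls in edgeR's fits. Of 9 genes of ileal bile acid handling, Nr0b2, the nuclear receptor known as SHP that bile acid sensing induces, was the 1 called in either fit, while DESeq2 called 3 without and 1 with the score. It was at 0.390, 6.43 and 15.7 CPM in lactating and 0.259, 0.385 and 0.704 in male libraries, with lactating female 3 among the males and the other 5 above them. The log2 fold change was 3.99 (SE 0.64, adjusted p = 0.00268) without and 3.55 (SE 0.66, adjusted p = 0.0109) with the score, and the latter call was lost without lactating female 2 (adjusted p = 0.0621). Virgin females were at 2.46, 4.08 and 9.82 CPM, and each of them exceeded each male. The bile acid importer Slc10a2 was at 167, 246 and 386 CPM in lactating and 104, 120 and 141 in male libraries but was not called by edgeR (log2 fold change 1.11, SE 0.32, adjusted p = 0.129; 0.65 with the score, adjusted p = 0.346). Without the score, it was called by DESeq2, and by edgeR on the 12 libraries alone (adjusted p = 0.0155). All 9 genes of this list had estimates above 0, with a median of 0.83, which was 0.40 with 8 above 0 once the score was in the fit.

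Of 9 sugar transport genes, edgeR called 1 in each fit, while DESeq2 called 2 without and 1 with the score. The gene called by edgeR was Slc5a4a, of the sodium-glucose cotransporter family. It was at 81.8, 88.1 and 151 CPM in lactating and 10.9, 21.1 and 32.0 in male libraries, far apart (log2 fold change 2.19, SE 0.34, adjusted p = 0.00208; 1.82 with the score, adjusted p = 2.90e-04). It has a close paralog, Slc5a4b, so the assignment of its reads is uncertain. The glucose transporter Slc2a2 was at 49.6, 57.3 and 129 CPM against 13.3, 27.9 and 49.5 and was not called (1.23, SE 0.33, adjusted p = 0.0988; 0.82 with the score, adjusted p = 0.240). Of 20 genes of fatty acid oxidation and ketogenesis, edgeR called 1 in each fit, while DESeq2 and voom called 2 in each. The gene called by edgeR, the mitochondrial enzyme Acadl, was at 88.3, 120 and 161 CPM against 60.8, 71.8 and 78.4, without overlap. The estimate was 0.74 (adjusted p = 0.0137; 0.52 with the score, adjusted p = 0.00749), and the call without the score was lost without virgin male 6 (adjusted p = 0.0502). None of 26 fat absorption genes was called by edgeR in either fit, nor by DESeq2 or voom. At an unadjusted p under 0.05, 12 of them rose without the score and 1 with it. Of all 14955 genes, 2364 and 1360 passed this threshold in either direction.

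Of 19 genes of amino acid breakdown, Tat and Aldh4a1 rose without the score, and none was called with it. DESeq2 called 3 rises and 1 fall without and 3 rises with the score, and the median was −0.07 without and 0.09 with it. Tat, tyrosine aminotransferase, was at 2.36, 5.32 and 25.7 CPM in lactating and 0.565, 1.23 and 2.69 in male libraries, and lactating females 3 and 6 were highest, at 21.9 and 25.7, while 2 and 4 lay in the male range. The log2 fold change was 2.87 (adjusted p = 0.0479) without and 2.65 (adjusted p = 0.101) with the score. Its call was lost without lactating female 1, 3, 5 or 6 or any male (adjusted p 0.0610 to 0.142). Aldh4a1, which acts in proline breakdown, was at 17.6, 43.2 and 85.2 CPM against 5.56, 11.2 and 20.5 (1.88, adjusted p = 0.0439; 1.18 with the score, adjusted p = 0.0586), and lactating female 2 lay within the male range. That call was lost without lactating female 1, 5 or 6 or without virgin male 1, 2, 4 or 6 (0.0868 to 0.124). Suox, sulfite oxidase, which is in none of the lists, was at 278, 327 and 403 CPM against 120, 188 and 232, without overlap (0.87, adjusted p = 0.0348; 0.68 with the score, adjusted p = 0.0843). The Suox call was lost without lactating female 1, 5 or 6 or without virgin male 1, 2, 4, 5 or 6 (0.0674 to 0.0948).

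Of 17 genes of amino acid and peptide transport, edgeR called 1 in each fit, a fall. DESeq2 and voom also called 1 fall in each fit, with 1 rise under DESeq2 without the score and 2 under voom with it. The gene that fell in edgeR's fits was Slc6a9, a glycine transporter. It was at 5.6, 7.44 and 8.91 CPM in lactating and 10.3, 13.3 and 15.7 in male libraries, without overlap (log2 fold change −0.87, adjusted p = 0.0353; −0.64 with the score, adjusted p = 0.0348). Its call was lost without lactating female 1, 4, 5 or 6 or without virgin male 1, 2, 3, 4 or 6 (adjusted p 0.0505 to 0.0953). With the score, it was lost without lactating female 2 or 4 or without virgin male 1, 2, 3, 4 or 6 (0.0508 to 0.191). Of 38 genes of steroid and xenobiotic metabolism, 1 rose and 1 fell in both of edgeR's fits. DESeq2 called 1 rise and 2 falls in each fit, and voom called 1 rise in each, with 2 falls without and 1 with the score. Cyp3a44, a cytochrome P450, was at 0.939, 6.46 and 17.8 CPM against 0.473, 0.719 and 1.58, with lactating female 3 again among the males (3.24, SE 0.54, adjusted p = 0.00351; 2.52 with the score, adjusted p = 0.00931). Cyp3a44 has near-identical relatives, which makes its count uncertain, and its call with the score was lost without lactating female 2 (adjusted p = 0.122). The carboxylesterase Ces1e was at 3.61, 5.10 and 7.00 CPM against 8.56, 9.52 and 15, without overlap (−0.99, adjusted p = 0.0137; −0.91 with the score, adjusted p = 0.0313). The latter was lost without lactating female 3, 4 or 6 or without virgin male 2 or 5 (0.0546 to 0.0966).

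Enzymes that modify collagen and glycans included some of the largest rises. Plod2, a lysyl hydroxylase, was at 0.550, 8.13 and 21.2 CPM in lactating and 0.285, 0.487 and 0.828 in male libraries. Lactating female 3 lay among the males, and the other 5 lactating libraries were at 4.45 or more. Both fits gave about the same log2 fold change, 4.25 (SE 0.59, adjusted p = 8.37e-04) without and 4.24 (SE 0.62, adjusted p = 0.00144) with the score. Plod3, of the same family, changed little, at 17.3, 20.1 and 22.3 CPM against 14.5, 15.5 and 16.5 (0.37, SE 0.09, adjusted p = 0.0488; 0.43 with the score, adjusted p = 0.00692). The Plod3 call was lost without any lactating library except number 4 and without any male (adjusted p 0.0544 to 0.129), and with the score it was lost without lactating female 2 (adjusted p = 0.0533). Of 8 collagen-modifying hydroxylases tested, these 2 were called in both of edgeR's fits, while DESeq2 and voom called 3 rises in each fit.

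Gcnt1 and Fut2, glycosyltransferases of mucin-type glycans, were the 2 called of 25 such genes without the score, and neither was called with it by edgeR. DESeq2 called 3 of the 25 in each fit, Gcnt1 and Fut2 with the score among them (adjusted p = 0.00863 and 0.0018). Gcnt1 was at 9.33, 19.1 and 55.8 CPM in lactating and 2.04, 2.94 and 6.74 in male libraries, without overlap (log2 fold change 2.90, adjusted p = 0.0313; 2.35 with the score, adjusted p = 0.0669). Fut2, which builds the H antigen, was at 1.31, 3.30 and 13.7 CPM against 0.485, 0.707 and 1.79 (2.60, adjusted p = 0.0431; 2.77 with the score, adjusted p = 0.0515), with lactating females 2 and 4 in the male range. Lactating females 3, 5 and 6 were the 3 highest for both genes, as they were for Tat. The Gcnt1 call was lost without lactating female 5 or 6 or without virgin male 1, 2, 4, 5 or 6 (adjusted p 0.0653 to 0.0919). That of Fut2 was lost without lactating female 3, 5 or 6 or without virgin male 1, 2, 4, 5 or 6 (0.0544 to 0.118).

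The defence genes C3 and Il18 rose. The complement gene C3 was at 3.63, 5.50 and 8.99 CPM in lactating and 1.01, 1.28 and 1.62 in male libraries, far apart (log2 fold change 2.17, SE 0.29, adjusted p = 5.28e-04; 2.23 with the score, adjusted p = 0.00109). Il18, an epithelial cytokine, was the 1 call of 16 genes of inducible defence, at 26.8, 46.7 and 61.3 CPM against 11.5, 17.9 and 23.0, without overlap (1.32, SE 0.23, adjusted p = 0.00630; 1.12 with the score, adjusted p = 0.0126). The antimicrobial lectin Reg3b, in the same list, was at 2624, 6467 and 21819 CPM against 1822, 2550 and 3843 and was not called (1.82, SE 0.54, adjusted p = 0.142; 1.62 with the score, adjusted p = 0.323). Of 25 interferon response genes, 23 had estimates above 0, with a median of 0.81, or 0.45 with the score. None was called by edgeR, 16 were higher and 1 lower at an unadjusted p under 0.05 (9 and 1 with the score), DESeq2 called 5 and voom 2 (1 each with the score). Oas2, an interferon-induced antiviral enzyme, was at 1.60, 5.38 and 6.78 CPM against 0.802, 1.2 and 3.16, overlapping (1.68, SE 0.41, adjusted p = 0.0649; 1.31 with the score, adjusted p = 0.142).

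Several regulators and signalling genes were among those called under each of the 46 alternatives. Foxo6, a forkhead transcription factor, was at 16.5, 22.8 and 31.5 CPM in lactating and 5.22, 7.86 and 10.7 in male libraries (log2 fold change 1.59, SE 0.23, adjusted p = 0.00145; 1.32 with the score, adjusted p = 0.00170). Dusp6, a phosphatase that switches off ERK, was at 70.5, 118 and 212 CPM against 36.9, 42.6 and 65.5 (1.41, adjusted p = 0.00663; 1.01 with the score, adjusted p = 0.00311). Sulf2, a sulfatase that edits heparan sulfate outside the cell, was at 104, 131 and 178 CPM against 51.8, 70.8 and 85.8 (1.0, adjusted p = 0.00391; 0.83 with the score, adjusted p = 0.00391). Neither these 3 nor the next 2 genes overlapped between the groups. The phospholipase C gene Plcd1 rose by 0.81 on the log2 scale (adjusted p = 0.00506; 0.63 with the score, adjusted p = 0.00278). Tinagl1, which encodes a secreted matrix protein, rose by 1.21 (adjusted p = 0.00268; 0.98 with the score, adjusted p = 0.00390). Dusp6, Sulf2, Plcd1 and Tinagl1 were chosen after their values were seen. Ccdc151, a gene of ciliary dynein assembly, had the smallest p-value after Bcl6 among genes with a name but few reads, 18 to 29 counts in each lactating and 1 to 5 in each male library.

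Gcg and Tac1, hormone genes of enteroendocrine cells, the sensory cells of the epithelium, had larger estimates with the score. Gcg, the proglucagon gene from which GLP-1 is made, was at 48.1, 62.2 and 98.2 CPM in lactating and 22.5, 38.7 and 44.5 in male libraries, without overlap. Its log2 fold change grew from 0.90 (SE 0.20, adjusted p = 0.0460) to 1.09 (SE 0.17, adjusted p = 0.00289) with the score. The call without the score was lost without lactating female 2, 4, 5 or 6 or any male (adjusted p 0.0511 to 0.114), whereas with the score it held in each of 25 alternatives. Tac1, which encodes substance P, was at 2.03, 5.22 and 9.03 CPM against 1.60, 2.59 and 3.98, overlapping. It was called with the score alone (1.29, SE 0.26, adjusted p = 0.0253; 1.04 without, adjusted p = 0.135), and that call was lost without lactating female 2, 3 or 6 or without virgin male 1, 3 or 5 (0.0533 to 0.0878). Chga, a granule protein common to these cells, was at 55.1, 63.2 and 80.2 CPM against 37.5, 44.0 and 53.7 and was not called (0.53, SE 0.14, adjusted p = 0.0796; 0.47 with the score, adjusted p = 0.190). Of the 19 genes of this list, 17 had estimates above 0 without and 18 with the score, with medians of 0.39 and 0.25. Under library totals without TMM scaling, which moved the median of all genes to −0.19, 13 of the 19 were above 0.

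The falls were fewer and, apart from Bcl6, under 2-fold. Mreg, melanoregulin, was at 9.81, 12.1 and 13.3 CPM in lactating and 15.5, 18.7 and 19.8 in male libraries (log2 fold change −0.63, adjusted p = 0.0229; −0.55 with the score, adjusted p = 0.0605). Pter was at 2.86, 5.12 and 8.41 CPM against 9.03, 10.5 and 11.8 (−0.96, adjusted p = 0.0431; −0.79 with the score, adjusted p = 0.0222). Tcf3, a transcription factor of the E-protein family, was at 31.7, 43.2 and 51.1 CPM against 55.1, 57.8 and 63.6 (−0.47, adjusted p = 0.0464; −0.33 with the score, adjusted p = 0.00487). None of the 3 overlapped between the groups. Without the score, the Mreg call was lost without virgin male 1, 2, 3, 4 or 6 (adjusted p 0.0526 to 0.0666). The Pter and Tcf3 calls were lost without lactating female 1, 4, 5 or 6 or any male (0.0700 to 0.108 and 0.0669 to 0.118). With the score, that of Pter was lost without lactating female 6 or without virgin male 2 or 5 (0.0587 to 0.0837). The Tcf3 call with the score was lost with the 12 libraries alone and with the crypt stem cell list or the first principal component as the score (0.0535 to 0.0834).

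Adjustment removed 34 calls and added 15. The 34 genes called without the score alone, 29 higher and 5 lower, had adjusted p-values of 0.0515 to 0.246 with it, so some lay just past the threshold. The 15 called with the score alone, 8 higher and 7 lower, had adjusted p-values of 0.0529 to 0.943 without it. Esrrg, an orphan nuclear receptor of the oestrogen-related family, was the clearest gain, at 3.71, 5.95 and 14.3 CPM in lactating and 3.35, 4.22 and 5.55 in male libraries. The raw ranges overlapped, and the estimate was 0.66 (SE 0.32, adjusted p = 0.318) without and 1.04 (SE 0.13, adjusted p = 1.92e-04) with the score, on which it had a slope of 1.19. This call held in each of 25 alternatives of the fit. Fam111a and Hist1h1c had estimates near 0 without the score, 0.05 (adjusted p = 0.943) and −0.09 (adjusted p = 0.871), whose signs changed with the setting. With it they were 0.43 (adjusted p = 0.0115) and −0.60 (adjusted p = 0.0310). The Fam111a call was lost with the crypt stem cell list alone as the score and with crypt minus villus tip score (adjusted p = 0.0539 and 0.24). The slopes of these 2 genes on the score were 1.12 and −1.05, which give the size of the change with the score and not how closely a gene follows it.

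The falls of Dtx4 and Dpf3 were called with the score alone and were less stable. Dtx4 was at 4.72, 11.6 and 15.4 CPM in lactating and 16.8, 19 and 22.4 in male libraries, without overlap (−0.55 with the score, adjusted p = 0.0273; −0.82 without, adjusted p = 0.125). Dpf3, of a chromatin remodelling complex, was at 7.42, 8.29 and 10.8 CPM against 9.65, 11.3 and 13.5 (−0.52 with the score, adjusted p = 0.0252; −0.43 without, adjusted p = 0.116). The Dtx4 call was lost without lactating female 2 or 6 or without virgin male 1, 2, 3, 4 or 5 (adjusted p 0.0508 to 0.124). That of Dpf3 was lost without lactating female 2 or 6 or without virgin male 1 or 2 (0.0543 to 0.0691), and that of Hist1h1c without lactating female 3 or without virgin male 1, 2, 5 or 6 (0.0548 to 0.0998).

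Calls of named genes also depended on how the crypt share was measured. Of the 42 called with the score, 10 were lost with the crypt stem cell list alone (Acta1, Ces1e, Dtx4, Fam111a, Hist1h1c, Pter, Rfk, Slc52a3, Slc6a9 and Tcf3; adjusted p 0.0535 to 0.261). With crypt minus villus tip score, 6 of these 10 were lost, namely Acta1, Dtx4, Fam111a, Rfk, Slc52a3 and Slc6a9 (0.0677 to 0.24). With the first principal component, Acadl, Acta1, Ces1e, Dtx4, Pim3, Pter, Rfk, Slc52a3, Slc6a9 and Tcf3 were lost (0.0505 to 0.329). The cell cycle list alone lost none and added Aldh4a1, Fut2, Gcnt1 and Mreg. That list gives 35 genes of the score beside 14 stem cell genes, so it is nearly the same measure and most calls had to stay. The 12 libraries alone lost Acta1, Ces1e, Dpf3, Dtx4, Hist1h1c, Nr0b2, Pim3, Pter, Rfk, Socs2, Tac1 and Tcf3 (0.0534 to 0.201). Without the score, library totals without TMM lost 13 of 45 (Aldh4a1, Bco1, Fut2, Gcg, Plod3, Pter, Slc6a9, Socs2, Socs3, Suox, Tat, Tcf3 and Vim; 0.0558 to 0.396), and voom lost Bco1, Fut2 and Tat (0.0572 to 0.13). DESeq2 lost none with an adjusted p and added Chga, Dpf3, Dtx4, Enpp3, Oas2, Pmp22, Reg3b, Slc10a2, Slc2a2 and Tac1 without the score (0.00315 to 0.0418). With it, DESeq2 added Aldh4a1, Bco1, Fut2, Gcnt1, Mreg, Oas2, Slc19a3, Socs3, Suox and Tat (0.0018 to 0.0475).

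Gene lists of the villus shifted less with the score. The median log2 fold change of 15 villus tip genes was 0.62 without and 0.11 with it, that of 17 brush border enzymes 0.55 and 0.13, and that of 26 fat absorption genes 0.47 and 0.10. No gene of the first 2 lists was called by edgeR in either fit. At an unadjusted p under 0.05 without the score, 8 villus tip genes were higher and 1 lower, and 8 brush border enzymes were higher. With it, 3 and 4 were higher. DESeq2 called 3 villus tip genes without the score, and voom called 1 with it, whereas neither called a brush border enzyme. Under voom the brush border median was 0.40 without and 0.20 with the score, and 7 of the 17 were higher at an unadjusted p under 0.05 in both fits. Enpp3, a villus tip ectoenzyme that breaks down nucleotides, was at 42.9, 155 and 548 CPM in lactating and 15.6, 44.9 and 63.5 in male libraries, with lactating female 1 highest and lactating females 2 and 3 in the male range (log2 fold change 2.07, SE 0.51, adjusted p = 0.0690; 1.07 with the score, adjusted p = 0.333). Pmp22, of the same list, was at 183, 510 and 1524 CPM against 163, 235 and 364 (1.44, SE 0.40, adjusted p = 0.11; 0.64 with the score, adjusted p = 0.328).

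Crypt genes mirrored this. The 35 cell cycle genes had a median of −0.28 without and 0.05 with the score, and the 14 crypt stem cell genes −0.50 and −0.11, but these 2 lists define the score. Paneth cell genes, which are also of the crypt but not in the score, had a median of −0.47 without and 0.05 with it over 15 genes. Of 8 MHC class II genes, 8 were above 0 without and 4 with the score, with medians of 0.54 and −0.01. With the score none of the 8 was above 0 under voom (median −0.75) or under library totals without TMM (−0.19), so the direction depended on the setting. For 72 cytosolic ribosomal protein genes the medians were −0.22 and −0.12. By contrast, the median of the collagen-modifying hydroxylases was 0.42 without and 0.46 with the score, and that of 23 genes of the unfolded protein response 0.19 and 0.18, although under voom it was 0.18 and 0.04. Of the 167 genes of these 6 lists other than the hydroxylases, edgeR called none in either fit. At an unadjusted p under 0.05, 4 were higher and 6 lower without the score, and 7 higher and 2 lower with it, and DESeq2 and voom called 1 each with the score. More were lower under voom, 51 without and 20 with the score against 1 and 4 higher, and under library totals without TMM, 37 without and 2 with it against 0 and 4 higher. Ribosomal protein genes made up 41 of the 51 and 30 of the 37, against 2 of the 6 in edgeR's fit. Under library totals without TMM scaling, the unfolded protein median without the score was 0.00 and the villus tip median with it was 0.00, beside −0.19 and −0.05 over all genes.

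**Figure D4:**
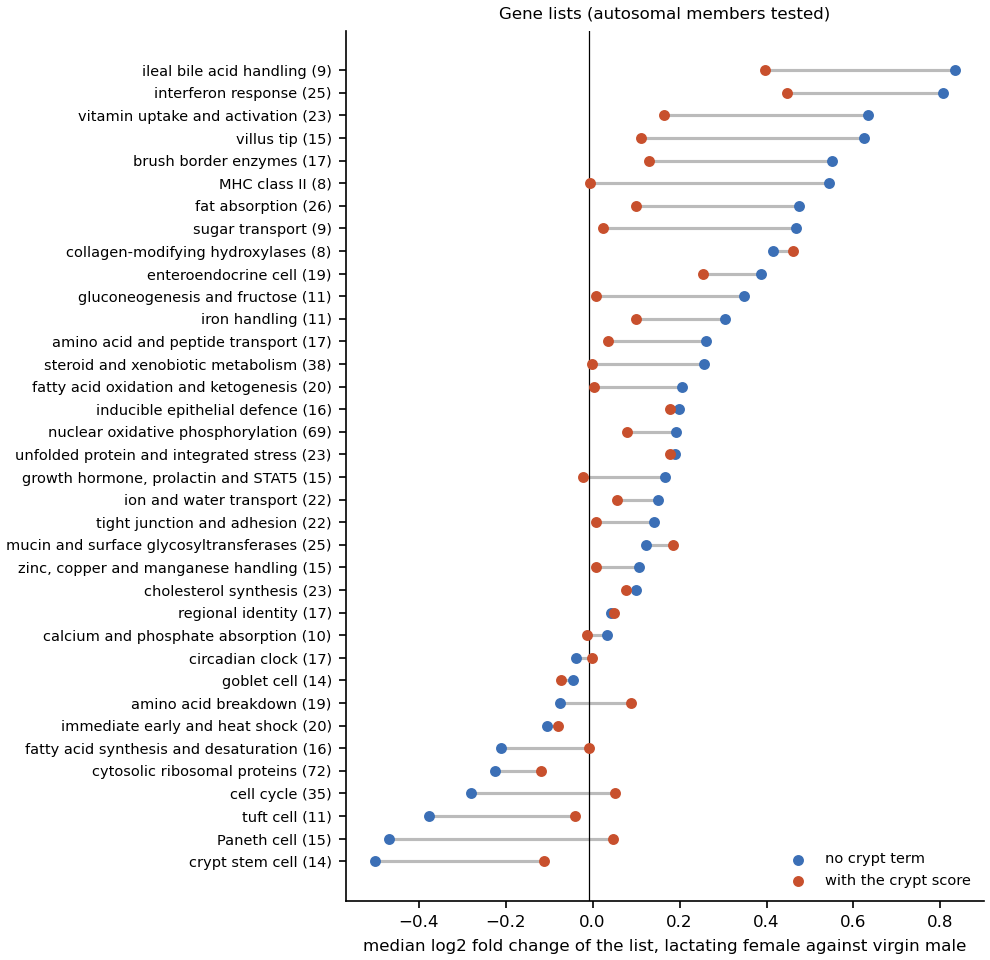
Median log2 fold change of each gene list, lactating female against virgin male, without (blue) and with (orange) the crypt score; numbers in brackets count autosomal members tested and the vertical line is the median of all autosomal genes without the score, −0.01. Villus lists lie right and crypt lists left of the line without the score, and most move toward it with the score.

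Levels in virgin females, which share the sex of the lactating and the mating status of the male group, were set beside the called genes as a description. Their mean lay between the male and the lactating mean for 85 of the 88 risen and 12 of the 13 fallen genes, and for 44.3% of all autosomal genes tested. Since called genes were chosen for a wide gap between those 2 means, these counts are no finding about virgin females. On the log2 scale it lay a median of 41.4% of the way from the male to the lactating mean for risen genes and 34.5% for fallen ones, and it was nearer the male mean for 60 of 88 and 11 of 13. Genes differed widely in this. Virgin females were near the males for Bcl6, Gcg and Slc40a1, where their mean CPM was 11.9, 36.7 and 19.1 against 11.7, 35.7 and 15.5. They were nearer the lactating mean for Nr0b2, at 4.81 CPM between 0.412 in males and 6.61 in lactating females, and for Dusp6, at 98.3 CPM between 47.3 and 126. Since the crypt score of the virgin females, 4.29 ± 0.572 (SD, n = 6), was close to that of the lactating females and below that of the males, the share of sex in these positions was not tested.

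**Figure D5:**
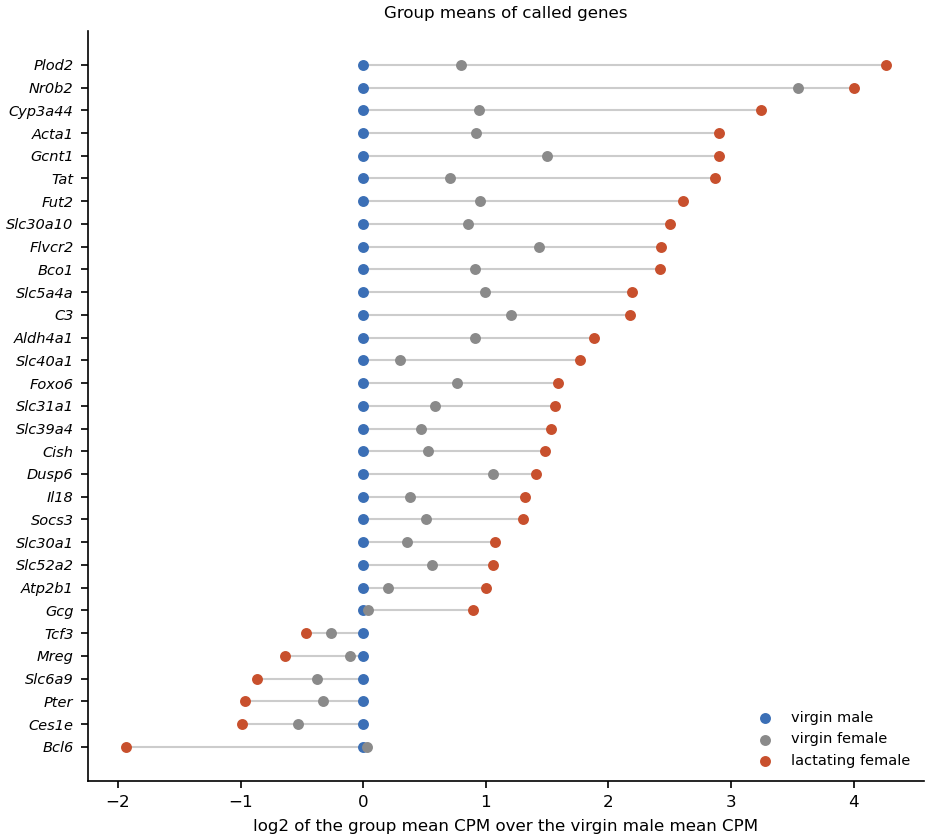
Log2 of the group mean CPM over the virgin male mean for 31 called autosomal genes, with virgin male at 0, virgin female in grey and lactating female in orange. The virgin female mean lies close to the males for Bcl6 and Gcg and close to the lactating females for Nr0b2.

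The groups were completely separate for most called genes. The 6 lactating libraries lay wholly above the 6 males for 61 of the 88 risen genes and wholly below for 10 of the 13 fallen genes. Over all 14955 genes such separation was found in 1.28%, with 0.856% higher and 0.428% lower in lactating libraries. Separation and calls rest on the same values.

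Called genes were spread over all 19 autosomes, from 1 on chromosomes 3 and 13 to 13 on chromosome 1, or 0.118% of those tested on chromosome 3 to 1.53% on chromosome 16. In 8 pairs, involving 15 genes, called genes were next to each other among tested genes, and 7 of these pairs moved in the same direction. Since 88 of the 101 called genes rose, most pairs of called genes share a direction anyway, so this is no finding about neighbours. Whether 8 pairs are more than the number of calls would give was not tested. The 1 overlapping pair is Gm2061 and Slc30a10, whose counts are uncertain. Slc52a2 lay 85 bases from Fbxl6, an F-box protein gene on the opposite strand (chr15:76535721-76538746). Fbxl6 was at 28.4, 43.1 and 55.0 CPM in lactating and 19.8, 23.0 and 26.7 in male libraries, without overlap (log2 fold change 0.92, adjusted p = 0.00204; 0.76 with the score, adjusted p = 0.00278), and was chosen after its values were seen. Rfk and Gcnt1 lay 21198 bases apart on opposite strands of chromosome 19. The C3 gene and its neighbour Gpr108, which fell by 0.37 on the log2 scale, were the 1 pair that moved apart.

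Markers of other cell types summed to at most 136 CPM a list in each library, below Epcam alone. Summed over the list, the CPM (unscaled library totals) of the 12 T cell markers were 0.456 to 5.71 in lactating and 0.398 to 1.57 in male libraries, and those of the 9 B and plasma cell markers 1.37 to 13.7 and 1.76 to 3.80. Cd3d, Cd4, Cd79a and Ms4a1 had at most 3 counts in each of the 12 libraries. The 2 T cell and 4 B and plasma cell markers that were tested all had estimates above 0 in both of edgeR's fits. The median log2 fold changes were 1.63 and 1.145 without the score, and 1.11 and 0.31 with it. Under voom with the score they were −0.22 and −0.18. Of 4 myeloid markers tested, 2 were above 0. Myeloid markers summed to 14 to 33.5 in lactating and 17.7 to 58.3 in male libraries, overlapping, with S100a8 and S100a9 at 0. Fibroblast, endothelial, neural, red blood cell, pancreatic acinar and hepatocyte markers summed to 13.2 CPM or less in each library. Milk protein genes were at 0 in 5 of 7 and at most 3 counts in the other 2, Csn2 and Csn3. Of the 20 members of these 10 lists that were tested, none was called by edgeR or DESeq2 in either fit. At an unadjusted p under 0.05, 5 were higher without the score and 2 with it, and voom called 1 with it. Vim, an intermediate filament gene made by mesenchymal cells and leukocytes, is in none of the lists and was chosen after its values were seen. It was at 2.91, 4.16 and 5.37 CPM in lactating and 1.91, 2.15 and 2.74 in male libraries, without overlap, and rose in both fits (log2 fold change 0.87, SE 0.16, adjusted p = 0.00812; 0.88 with the score, adjusted p = 0.00955). The call with the score was lost without lactating female 2 (adjusted p = 0.0621), and that without it under library totals without TMM (0.12). The part of these cells in the results was not tested.

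Of the 11 lists, that of muscle was the 1 whose groups did not overlap, at 21.3 to 136 CPM in lactating and 7.35 to 16.3 in male libraries. It was carried by Acta1, skeletal muscle alpha-actin, at 20.9, 66.1 and 160 CPM in lactating and 6.29, 11.5 and 14.3 in male libraries, without overlap (log2 fold change 2.90, SE 0.55, adjusted p = 0.0113; 2.19 with the score, adjusted p = 0.0310). Acta2, Cnn1, Des, Actg2, Ckm and Myh1, the defining muscle markers, had at most 3 counts in each library, and Tnnt3 was at 0. The call with the score was lost without lactating female 2, 3 or 6 or without virgin male 1, 2, 3 or 5 (adjusted p 0.0506 to 0.104). Of 20 immediate early and heat shock genes, which respond to tissue handling among other things, none was called by edgeR, DESeq2 or voom in either fit. In each of edgeR's fits, 3 were lower at an unadjusted p under 0.05. Of all 14955 genes, 2364 passed that threshold without the score and 1360 with it. Hspa1a was at 32.7, 56.8 and 98.0 CPM against 51.5, 132 and 499, overlapping (−1.83, SE 0.58, adjusted p = 0.164; −1.60 with the score, adjusted p = 0.380).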

How the data were processed

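The deposited tables hold raw counts of reads per gene, 1 table a library, for 18 libraries in 3 groups of 6; per the submitters' processing notes the authors used FastQC 0.11.5, HISAT2 2.0.4, featureCounts from Subread 2.0.0, DESeq2 1.24.0 and the GRCm38 build. The strand setting and read filters are not given in the sources used here; polyA selection leaves out other RNA. Identifiers were placed on chromosomes by GENCODE M21, which held 47310 of 47729; the other 419 were not used. Counts were filtered with filterByExpr, scaled by TMM and tested in edgeR 4.0.16 (R 4.3.3, quasi-likelihood, all 18 libraries, 1 mean a group), with p-values adjusted by Benjamini-Hochberg over the 15572 genes of all chromosomes that passed; autosomal genes alone are reported. The crypt score (log2 CPM, prior count 2) entered the repeated fit as a covariate. SE is the size of the log2 fold change over the square root of F. Named genes were taken from the 10 of smallest p and from the 15 largest rises and 10 largest falls with at least 5 CPM. Up to 8 called in 1 fit alone and up to 2 of each list by smallest p could be added. Not every gene that this rule gives is described. Genes from outside the rule are said to be chosen after their values were seen. The genes and lists were chosen with earlier results of these data known. Alternatives were DESeq2 1.42.0, limma 3.58.1 voom with quality weights, other scaling, no filter, 12 libraries, a replicate block, other crypt measures, and each library left out. With 37984403 to 46046333 counts a lactating library and 34577104 to 47748407 a male library, 3 counts, the floor, are 0.0628 to 0.0868 CPM. No 2 libraries agreed within sampling noise (lowest chi-square per degree of freedom 44.4 over 66 pairs). Tested on simulated data of 15396 genes, the fit without the score recovered 29.9%, 70.1% and 98.5% of genes changed 1.5-, 2- and 4-fold. The fit with it recovered 17.9%, 56.7% and 97%. The changed genes were drawn from those with a mean above 1 CPM. Each gene was simulated without a crypt gradient, so these values cannot say how the score alters recovery in the real libraries. The numbers were not taken as pairs, since nothing in the labels ties same-numbered libraries and not every same-numbered pair deviated together.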

Additional observations from a re-analysis of the deposited data

Results flagged for a closer look

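A total of 124 groups of 6 libraries were examined, mainly the lactating and the male CPM values of the genes named. In 11 of them, the gap of the highest library to its neighbour exceeded Dixon's critical share of the range for 6 values. Normal and independent values would give about 1 in 20 groups. CPM values were not shown to be either, so the count is not read as an excess. Of the 11 groups, 8 were lactating. Lactating female 1, the library with the lowest crypt score, was the highest in 6 of them. It was at 150.6 CPM for Slc5a4a against 81.8 to 93.2 in the other lactating libraries, at 74.81 for Flvcr2 against 14.3 to 30.8, and at 5.418 for Slc19a3 against 0.556 to 0.953. It was also at 115.5 for Bco1 against 5.25 to 43.2 and at 547.9 for Enpp3 against 42.9 to 170. For Slc2a2 it was at 129.3 against 49.6 to 69.7. Esrrg was at 14.35 CPM in lactating female 2, the library with the highest crypt score, against 3.71 to 7.33, and Dpf3 at 10.84 in lactating female 5 against 7.42 to 8.64.

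Among males, virgin male 3 was at 6.742 CPM for Gcnt1 against 2.04 to 3.37 and at 1.792 for Fut2 against 0.485 to 0.849. Virgin male 5 was at 3.157 CPM for Oas2 against 0.802 to 1.62.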

How the results depend on the processing

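Counts of called autosomal genes depended on the tool and on single libraries. Without the score (101 genes), DESeq2 called 376, 100 of the 101 among them and Slc19a3 without an adjusted p, voom 195, library totals without TMM gave 59, and dropping the libraries high in Gm42418 left 48; leaving out 1 library gave 47 to 280. With the score (82 genes), DESeq2 called 225, voom 316, the 12 libraries of the compared groups alone 52, and the first principal component in place of the score 54; leaving out 1 library gave 54 to 104. The cause was not tested. With the replicate number as a replicate block, 98 genes were called without the score and 36 with it, where 17 of 42 named genes were lost (adjusted p 0.0584 to 0.222); same-numbered libraries deviated together with correlations of −0.18 to 0.32, and 2 of 6 matched their own number best, so this is no pairing by design. The crypt score difference was −0.58 to −0.26 on leaving out 1 library, and past the threshold without lactating female 2 (−0.58). Of the genes named, Fam111a and Hist1h1c reversed in the fit without the score, where neither was called. Fam111a was −0.0844 without TMM, −0.0298 with the replicate block, and −0.155 to 0.188 on leaving out 1 library, below 0 without lactating female 2, lactating female 3 or virgin male 5. Hist1h1c was −0.229 to 0.0258, above 0 without the same 3. Of 101 genes, 40 stayed called under all 21 alternatives without the score, and of 82, 26 under all 25 with it. On simulated data, made without a crypt gradient, 1.5-fold changes were mostly missed.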
